A study of Mus musculus with 13 samples.

Results

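Ppp1r16b was examined as a gene with many peaks in lists made with a STAT3 antibody. Peaks of the 12 deposited lists that overlapped its annotated span or the 50 kb on either side were taken as members, and the gene had been chosen by the number of its sites with IL-21 in earlier results of these same lists. The window held 23 of the 13513 peaks on the main chromosomes, and these formed 11 of the 11227 regions of the series. A region, here called a site, is a set of peaks of the 12 lists that overlap by at least 1 bp. A site is thus not by itself a place of STAT3 binding: 2 of the 11 had a peak only in a STAT3 KO library and 1 only in a WT IL-4 library. Presence by treatment and genotype is what chose the locus, so it is described without a test.

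Protein phosphatase 1 takes its specificity from regulatory subunits that bind its catalytic subunit and hold it at a place or a substrate. Ppp1r16b encodes one of them, also known as TIMAP, an ankyrin repeat protein of the myosin phosphatase targeting family that is anchored to membranes by a lipid group. It is best known from endothelial cells, where it is linked to the dephosphorylation of ezrin, radixin and moesin, proteins that tie actin to the plasma membrane. STAT3 is activated by the IL-21 receptor and binds DNA as a dimer, typically at the palindrome TTCNNNGAA, and IL-4 acts mainly through the related factor STAT6.

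CUT&RUN mapped STAT3 on chromatin: the antibody 124H6 against STAT3 brought a nuclease to bound sites in opened cells, and the DNA cut free was sequenced. Mouse splenic B cells had grown for 96 h in anti-CD40 at 1 µg/mL with IL-4 at 12.5 ng/mL, were sorted by surface IgM or IgG1, and 400000 sorted cells were then given anti-CD40 with IL-21 (10 ng/mL) or with IL-4 (12.5 ng/mL) for 1 h. The groups were STAT3 KO cells with IL-21 or IL-4, of each isotype (1 library a group), WT cells with IL-21, of each isotype (2 libraries a group), and WT cells with IL-4, of each isotype (2 libraries a group). All groups shared the culture with IL-4, and the IL-21 arm received no IL-4 in the last hour, so added IL-21 and removed IL-4 cannot be told apart. The labels give neither the allele nor the cell type of the knockout, and the source of each replicate, whether 1 animal or several, is not in them. An input sample also belongs to the series and was not used here.

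The lists were short, and their lowest peaks held few fragments. They held 648 to 1892 peaks in KO libraries, 865 to 2034 in WT IL-21 libraries and 623 to 1455 in WT IL-4 libraries. Each peak carries a fold enrichment, the authors' ratio of signal to background at the summit, and a −log10 p by which the peaks of a list were ranked. Fold and p together fix a whole number of fragments at the summit and a background, and this solution was found for all 23 peaks. Several peaks of the window stood on the lowest background solved in their library, and there fold follows the fragment number alone. The smallest pileup called anywhere was 10 to 12 fragments depending on the library, so a site with no peak may still be bound below that height. Intervals were not given because the lists hold no total depth.

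Ppp1r16b lies on chromosome 2 from 158666733 to 158766334 (mm10, plus strand, 99602 bp), and 9 of the 11 sites overlapped it. The other 2 lay in the neighbours downstream, at the 5′ ends of Fam83d, which brings casein kinase 1 alpha to the mitotic spindle, and of Dhx35, a DEAH-box RNA helicase. Actr5, a subunit of the INO80 chromatin remodeller and the only other protein-coding gene in the window, had none. Upstream, the first peak lay 49893 bp inside the limit (fold 5.66) and the next one beyond it 206222 bp outside (fold 5.37). Downstream, the last peak lay 21489 bp inside (fold 4.59) and the next 11563 bp outside (fold 4.78).

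The 23 peaks comprised 3 in KO libraries, all with IL-4, 18 in WT IL-21 libraries and 2 in WT IL-4 libraries. The KO IL-21 libraries and the WT IgG1 IL-4 libraries had none. Of the 8 sites with a WT IL-21 peak, 7 had no KO peak, against 93.5% of the 4305 regions with a WT IL-21 peak in the whole series. Likewise 7 of the 8 had no WT IL-4 peak, against 94% of those regions. Lacking a KO or an IL-4 peak was thus common throughout the series. As to recurrence, 5 of the 8 sites were shared by 2 or more WT IL-21 libraries, against 16.1% of regions, and 4 by 3 or more, against 8.43%. These shares describe how the locus came to be chosen and were not tested.

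**Figure D1:**
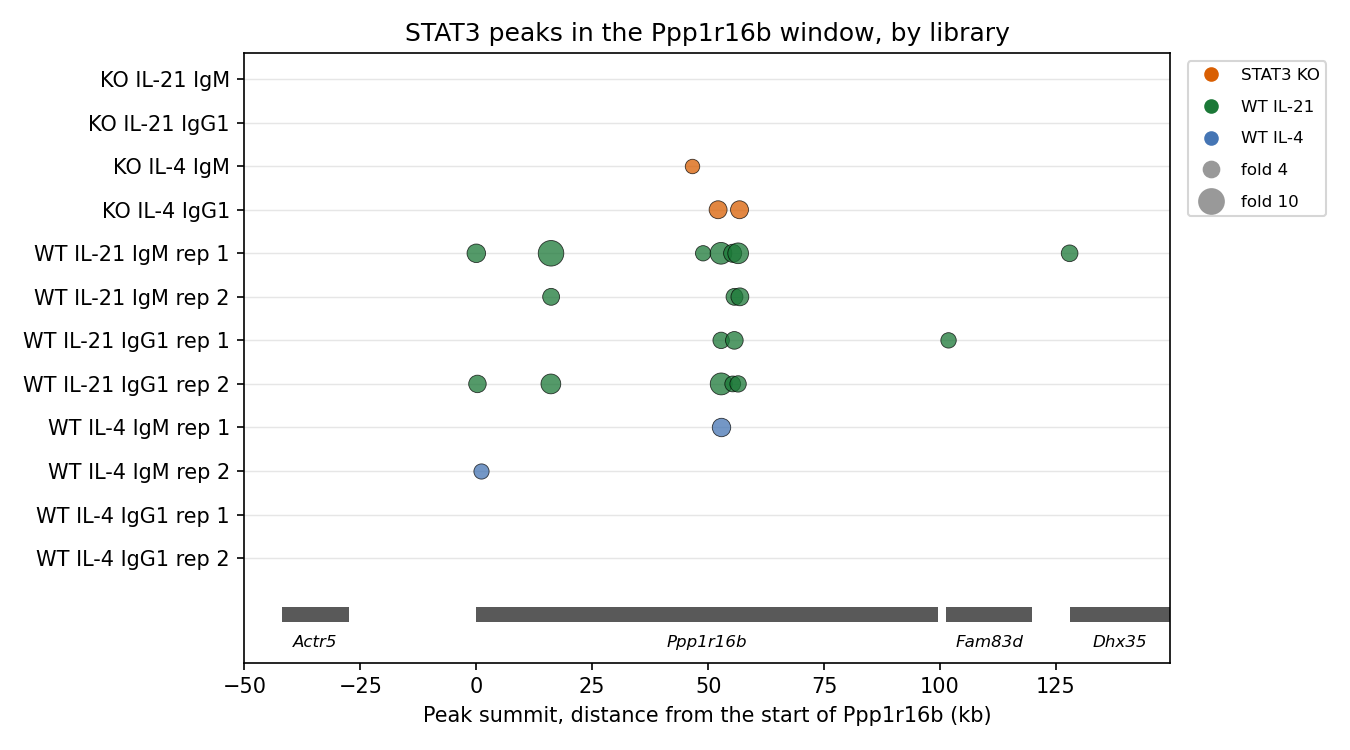
Summits of all peaks in the window (x axis, kb from the start of Ppp1r16b) in each of the 12 libraries (rows), with circle area in proportion to fold enrichment and gene spans drawn as grey bars. WT IL-21 libraries hold 18 of the 23 peaks, and those in at least 3 of these libraries lie 16.1 to 56.6 kb into the gene.

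The first site covered the 5′ end of the gene (158666626 to 158667085, from −107 to 352 bp relative to the annotated start) and was found with IL-21 in 1 library of each isotype. In the first WT IgM IL-21 library the peak was 422 bp wide, with its summit 1 bp after the annotated start, a fold of 5.66, 19 fragments over a background of 2.53 and rank 783 of 2034. In the second WT IgG1 IL-21 library it was 273 bp wide, with its summit 250 bp after that start, a fold of 5.06, 15 fragments over 2.16 and rank 695 of 1485. The summits thus stood 249 bp apart although the peaks shared 235 bp. RefSeq gives 2 starts for the gene on GRCm38.p6, the assembly behind mm10. The window from 250 bases before to 50 after each start is shown because the peaks overlap these windows. The part of each peak that lies between the 2 windows was neither shown nor searched. Capitals mark bases under a peak.
Ppp1r16b, upstream start, chr2:158666483-158666782, plus strand: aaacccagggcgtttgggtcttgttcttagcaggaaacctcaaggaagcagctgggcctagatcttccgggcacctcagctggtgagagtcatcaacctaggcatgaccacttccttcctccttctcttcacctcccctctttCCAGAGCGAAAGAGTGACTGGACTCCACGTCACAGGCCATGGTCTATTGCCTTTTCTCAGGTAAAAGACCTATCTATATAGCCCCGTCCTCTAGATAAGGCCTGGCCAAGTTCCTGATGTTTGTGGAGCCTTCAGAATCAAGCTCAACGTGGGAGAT
Ppp1r16b, downstream start, chr2:158666885-158667184, plus strand: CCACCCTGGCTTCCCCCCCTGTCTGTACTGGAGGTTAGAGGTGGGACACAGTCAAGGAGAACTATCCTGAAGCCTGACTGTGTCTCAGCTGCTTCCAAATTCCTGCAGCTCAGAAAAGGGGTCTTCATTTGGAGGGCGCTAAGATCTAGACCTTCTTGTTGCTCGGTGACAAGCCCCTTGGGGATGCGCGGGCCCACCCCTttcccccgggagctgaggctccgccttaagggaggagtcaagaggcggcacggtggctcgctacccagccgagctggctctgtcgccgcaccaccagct
The first IgM IL-21 library's peak covered 157 bases of the upstream window and 163 of the downstream window. The second IgG1 IL-21 library's peak covered 201 bases of the downstream window and none of the upstream one. Its summit lay at −152 bp relative to the downstream start. Neither window holds TTCNNNGAA (the STAT palindrome, in 8.29% of 32817 RefSeq promoter windows), its longer form preferred by STAT6, with 4 bases between TTC and GAA (in 6.94%), or TGANTCA (the AP-1 element, in 7.81%), each searched on both strands. That says only that these letters are absent from these windows.

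A further peak near the 5′ end belonged to IL-4. The second WT IgM IL-4 library had one at 158667565 to 158667869, 479 bp downstream of the first site, with its summit 1003 bp after the start, a fold of 3.81 and rank 613 of 853. It overlapped no IL-21 peak.

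The site 16.1 kb into the gene (158682358 to 158683044) held the strongest peak of the locus. The first WT IgM IL-21 library had a fold of 10.8 there, 37 fragments over 2.53 and rank 156 of 2034, in the top 7.67% of its list. The second WT IgM IL-21 library had a fold of 4.71, 24 fragments over 4.30 and rank 323 of 1171. In the second WT IgG1 IL-21 library the fold was 6.44, with 25 fragments over 3.04 and rank 260 of 1485. The mean fold was 7.31 ± 3.12 (SD, n = 3 libraries), and the first WT IgG1 IL-21 library had no peak. No KO and no WT IL-4 library had a peak at this site. The 3 summits fell within 58 bp of each other.

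After a stretch of 35997 bp that held only a peak in the KO IgM IL-4 library, one in the first WT IgM IL-21 library and one in the KO IgG1 IL-4 library, 3 sites stood close together. They spanned 4771 bp (158719042 to 158723812), just past the middle of the gene, and held 10 of the 18 WT IL-21 peaks. The annotation used here has no exons, so whether they are intronic was not examined.

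The site at 52.8 kb (158719042 to 158719809) was found in 3 WT IL-21 libraries and 1 WT IL-4 library. No KO peak overlapped it, but one of the KO IgG1 IL-4 library ended just before it, with 8 bp between them (158718764 to 158719033, fold 5.30, 15 fragments, rank 332 of 1892). With IL-21 the fold was 7.77 in the first WT IgM library (21 fragments, rank 413 of 2034), 4.45 in the first WT IgG1 library (13 fragments, rank 536 of 865) and 7.90 in the second WT IgG1 library (24 fragments, rank 197 of 1485). With IL-4 the first WT IgM library had a fold of 5.61 (16 fragments, rank 191 of 1455). The IL-4 fold thus lay inside the IL-21 range, and by rank it stood in the top 13.1% of its list, beside the best of the IL-21 peaks there (13.3%). Every peak at this site stood on the lowest background solved in its library, so these folds also carry differences between libraries. Summits of all 4 peaks lay within 104 bp. The mean IL-21 fold was 6.71 ± 1.96 (SD, n = 3).

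The site at 55.5 kb (158721746 to 158722502) was the one found in all 4 WT IL-21 libraries, in no KO library and in no WT IL-4 library. Its fold was 5.38 in the first WT IgM library, 4.69 in the second WT IgM library, 5.14 in the first WT IgG1 library and 4.13 in the second WT IgG1 library. The mean was 4.83 ± 0.55 (SD, n = 4), the lowest mean of the 5 sites found in more than 1 library, and its SD was the smallest of the 4 sites found in at least 3 libraries with IL-21. Pileups were 18, 18, 17 and 24 fragments in the same order. It was a weak site for its kind: among the 98 regions with a peak in every WT IL-21 library and in no WT IL-4 library it ranked 95 by mean fold, where the median was 9.07.

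The site at 56.6 kb (158723071 to 158723812) lay 568 bp further on. The KO IgG1 IL-4 library had a peak in it, with a fold of 5.30, 15 fragments and rank 332 of 1892. The first WT IgM IL-21 library had a fold of 7.06 there (19 fragments, rank 528 of 2034), the second WT IgM IL-21 library 5.26 (18 fragments, rank 383 of 1171) and the second WT IgG1 IL-21 library 4.42 (13 fragments, rank 1053 of 1485). The KO fold lay within the WT IL-21 range, whose mean was 5.58 ± 1.35 (SD, n = 3). Here too every peak stood on the lowest background solved in its library, so the folds also carry differences between libraries. Both peaks of this KO library in the window, with equal fold and rank (15 fragments over 2.02), were therefore in or beside the group of close sites. Its list was the longest of the KO lists.

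**Figure D2:**
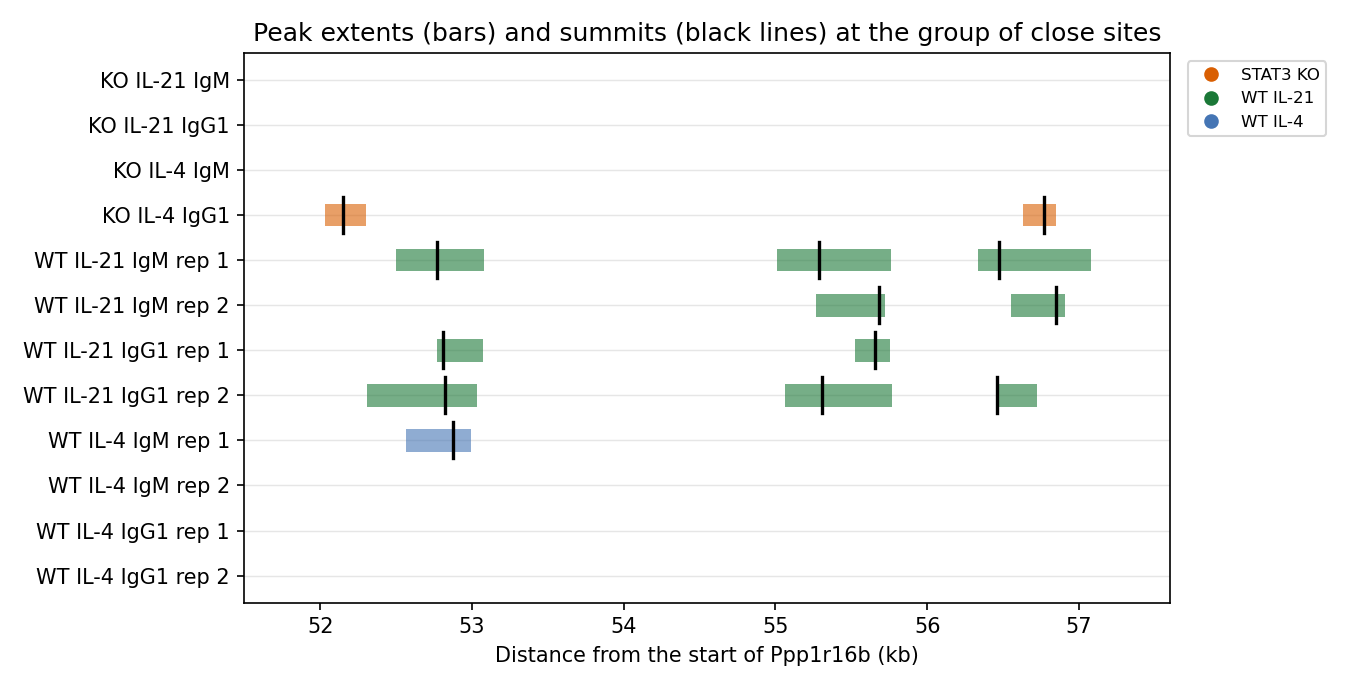
Extent of each peak (bar) and its summit (black line) at the 3 close sites, in kb from the start of Ppp1r16b, by library (rows). At 55.5 and 56.6 kb the summits form an upstream and a downstream set, whereas at 52.8 kb the overlapping peaks share 1 position within 104 bp.

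At the 55.5 and 56.6 kb sites the libraries did not share 1 summit. At 55.5 kb the first WT IgM and second WT IgG1 IL-21 libraries had summits within 20 bp of each other, and the second WT IgM and first WT IgG1 IL-21 libraries had theirs within 29 bp, across a gap of 349 bp. At 56.6 kb the first WT IgM and second WT IgG1 IL-21 libraries again had the upstream summits, 16 bp apart. The summits of the KO IgG1 IL-4 library and the second WT IgM IL-21 library followed 295 bp downstream of them and stood 79 bp apart. The split went across isotypes, and both libraries of the upstream set have the longest WT IL-21 lists. The part of list length or depth in it was not tested. The peaks themselves still overlapped, by 193 bp over all 4 at 55.5 kb and by 90 bp at 56.6 kb. When summits rather than peaks had to coincide (within 200 bp), no site of the window remained common to all 4 WT IL-21 libraries.

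**Figure D3:**
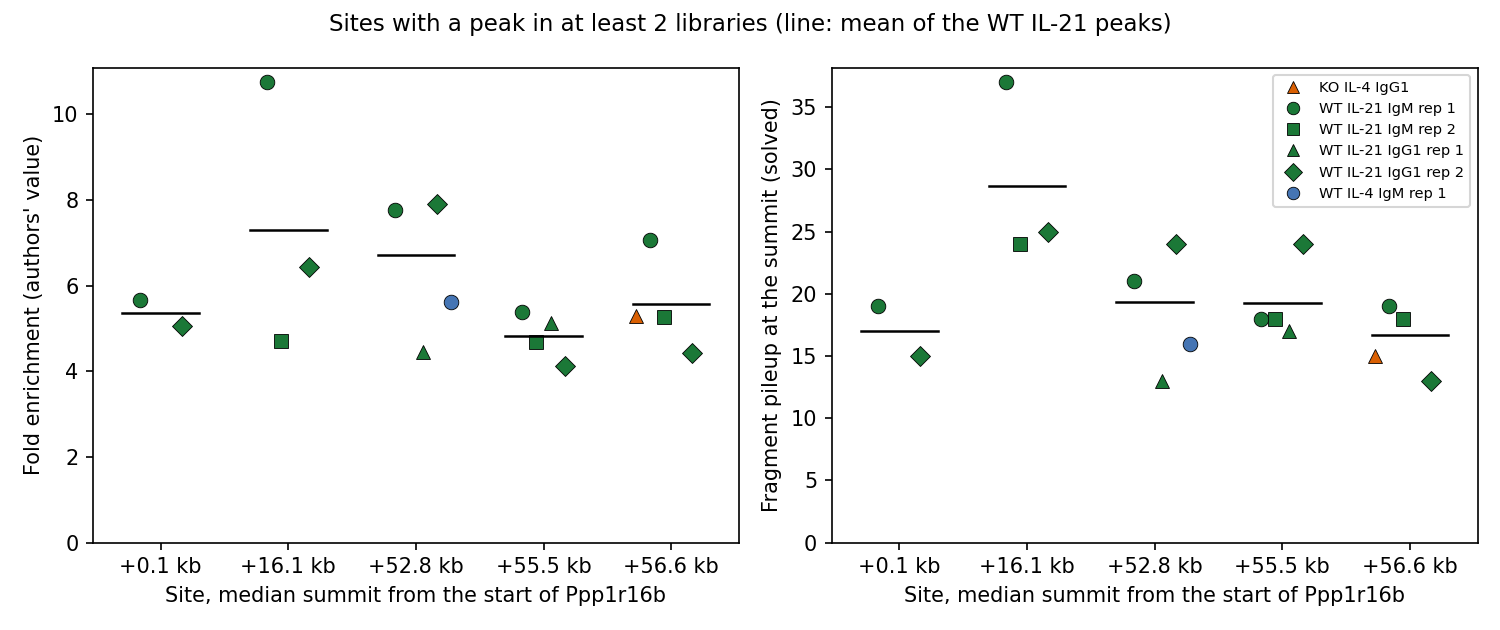
Fold enrichment (left) and fragments at the summit (right) at the 5 sites with a peak in at least 2 libraries, labelled by median summit in kb from the start of Ppp1r16b. Each point is 1 library, the line is the mean of the WT IL-21 peaks, and the fold of 10.8 in the first WT IgM IL-21 library is the sole value above 8.

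The remaining 4 sites, like the IL-4 site near the 5′ end and the KO site beside 52.8 kb, had a peak in a single library. Sites of 1 library made up 6 of the 11 here, against 90.7% of regions in the series. The peak of the KO IgM IL-4 library (158712968 to 158713275) had a fold of 3.44 and ranked 686 of 763. A peak of the first WT IgM IL-21 library (158715457 to 158715710) had a fold of 3.89 and ranked 1975 of 2034, near the bottom of its list. The site in Fam83d (158768507 to 158768763) was found in the first WT IgG1 IL-21 library, 483 bp inside the start of that gene, with a fold of 3.92. The site at Dhx35 (158794607 to 158794845) was found in the first WT IgM IL-21 library with a fold of 4.59, wholly within the RefSeq promoter window of that gene. That window has 1 match to TTCNNNGAA, TTCCTAGAA at 158794587, which ends 11 bases before the peak begins.

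By rank the locus was of middling strength. The 3 KO peaks stood in the top 17.5% (2 peaks) and the top 89.9% of their lists by −log10 p. The 18 WT IL-21 peaks stood between 7.67% and 97.1%, with a median of 40.5%, and the 2 WT IL-4 peaks at 13.1% and 71.9%. Among the 363 regions shared by 3 or more WT IL-21 libraries, the mean folds of the 4 recurrent sites ranked 158 (16.1 kb), 189 (52.8 kb), 267 (56.6 kb) and 304 (55.5 kb), around and below the median of 6.81. KO peaks in the window were 220 to 308 bp wide, WT IL-21 peaks 226 to 748 bp with a median of 394 bp, and WT IL-4 peaks 305 and 429 bp.

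**Figure D4:**
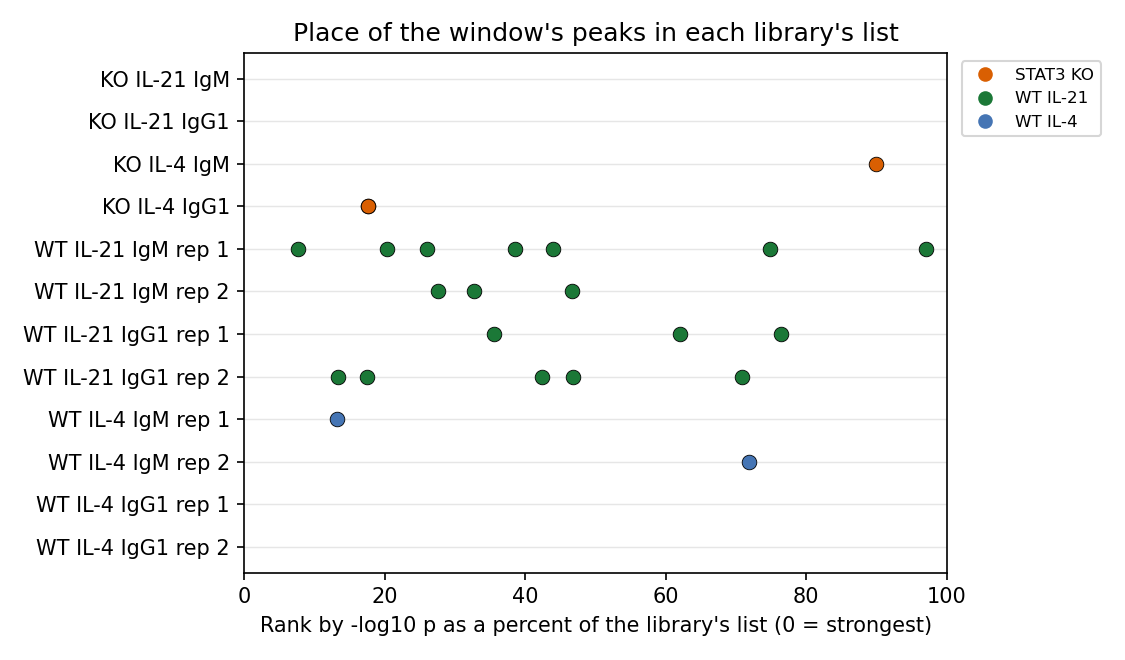
Rank by −log10 p of each peak in the window, as a percent of the length of its library's list (0 is the strongest), by library (rows). The 2 peaks of the KO IgG1 IL-4 library lie on the same spot at 17.5%, and WT IL-21 peaks spread from 7.67% to 97.1%.

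IL-21 and IL-4 were compared within each isotype. In WT IgM cells 3 of the 8 sites with a peak in an IgM library were gained, that is, had a peak in both IL-21 libraries and in neither IL-4 library, against 6.64% of regions in the series. In WT IgG1 cells 2 of 6 were gained, against 5.54%. Over both isotypes 1 of 9 was gained, against 1.31%. None was lost in either isotype, against 0.206% of regions in IgM cells and 0.0306% in IgG1 cells. The IgM set comprised the sites at 16.1, 55.5 and 56.6 kb, and the IgG1 set those at 52.8 and 55.5 kb. The 52.8 kb site was not gained over both isotypes, having a WT IgM IL-4 peak and none in the second WT IgM IL-21 library. These counts rest on single libraries. Without the first WT IgG1 IL-21 library the count over both isotypes rose to 3 and the IgG1 count to 5. Without the second WT IgM IL-21 library the IgM count rose to 6. Gained requires a peak in every IL-21 library compared, so leaving one out loosens the rule.

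Isotype was the contrast least tied to the choice of the gene. With IL-21 the WT IgM libraries had peaks at 7 and 3 sites and the WT IgG1 libraries at 3 and 5. With IL-4 the WT IgM libraries had 1 and 1 and the WT IgG1 libraries 0 and 0. The IL-21 ranges overlapped. The mean difference within treatment was 1 site per library (IgM minus IgG1, means of 3 ± 2.83 and 2 ± 2.45, SD over both treatments, n = 4 each), and did not pass (two-sided exact permutation test, p = 0.444, adjusted p = 0.611 over 2 measures, smallest possible p 0.0556). As a share of a library's peaks, the window held 0.344% and 0.256% with IL-21 in WT IgM libraries and 0.347% and 0.337% in WT IgG1 libraries, so the IgM mean was 0.300% and the IgG1 mean 0.342%. With IL-4 it held 0.0687% and 0.117% in WT IgM libraries and 0% in both WT IgG1 libraries. The mean of the differences within each treatment (IgM minus IgG1) was 0.0257 percentage points, with opposite signs in the 2 treatments, and did not pass either (exact permutation p = 0.611, adjusted p = 0.611). No site was found in both libraries of one isotype and neither of the other with IL-21, against 2.16% (IgM) and 0.302% (IgG1) of regions. The design could not have reached 0.05, so these tests do not show that the isotypes are alike.

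The number of recurrent sites, the property for which the gene was chosen, was set against other genes as a description. The span of Ppp1r16b held 4 regions shared by 3 or more WT IL-21 libraries, and no other of 21883 genes had that many within its span. Within 50 kb on each side, 14 genes had 4 or more such regions, Ppp1r16b among them with 4. Socs3 and its neighbour Pgs1 had 6 each, and neighbouring genes share regions in such windows. Counted within the span alone, Cradd, which encodes a death domain adaptor of caspase 2 activation, came next after Ppp1r16b with 3. Of the 2443 genes at least as long as Ppp1r16b (11.2% of all), itself included, 36 held 1 or more such regions and 3 held 2 or more. With each region given to the nearest gene within 50 kb, Ppp1r16b had 4, and Socs3, the feedback inhibitor of STAT3, had 6. Of 335 groups of such regions separated by more than 5 kb, 6 held 3 or more. They were the group in Ppp1r16b, 2 groups at Socs3, 1 at Fgd2, an exchange factor for Cdc42, 1 at histone genes on chromosome 3, and a group of 12 near the start of chromosome 9 (3000918 to 3038262) with no gene assigned. Peaks were filtered here by chromosome only, so the recurrent regions may include artefacts. Mean folds of these regions ran from 1.37 to 75.7.

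Likeness to Ppp1r16b was measured as the summed absolute difference in the number of regions with a peak, over the 12 libraries. In the first and second WT IgM and the first and second WT IgG1 IL-21 libraries Ppp1r16b had 6, 3, 2 and 5 regions, and Cradd, the closest gene (distance 7), had 6, 2, 2 and 3. Next came Tha1, a threonine aldolase gene next to Socs3 (distance 9). At distance 10 followed Cic, a transcriptional repressor, Irf8, a transcription factor of B and myeloid cells, Ksr1, a scaffold of the MAP kinase cascade, and Rftn1, a lipid raft protein of B cells. Cradd and Tha1 each had 3 regions shared by 3 or more WT IL-21 libraries, Cic had 2, and Irf8, Ksr1 and Rftn1 had 1 each. The 4 IL-21 counts of Ppp1r16b stood in the order of the list lengths (2034, 1171, 865 and 1485 peaks). Distances used raw counts, without a correction for list length, so a small distance need not mean shared STAT3 behaviour.

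Listed genes of the phosphatase system had peaks at shares not far from those of all genes. Of 29 listed genes (catalytic and regulatory subunits of protein phosphatase 1, and ezrin, radixin and moesin), 5 (17.2%) had a KO peak, 4 (13.8%) a WT IL-21 peak and 5 (17.2%) a WT IL-4 peak. Of all protein-coding genes, 12.8% had a KO peak, 13.5% a WT IL-21 peak and 10.8% a WT IL-4 peak. No listed gene had a region gained over both isotypes, against 0.407% of genes, and no region of theirs was found in more than 1 WT IL-21 library. The 4 with a WT IL-21 peak were Ppp1r10, a nuclear subunit (fold 4.19 in the second WT IgM library), Ppp1r15a, which directs the phosphatase to eIF2 alpha (4.81 in the first WT IgM library), Ppp1r18, an actin-associated subunit (6.71, the same library), and Ezr, which encodes ezrin (4.25, the same library). The median number of WT IL-21 libraries per gene was 0 for the list and for all genes. Of the catalytic subunit genes, Ppp1cc had 1 region, found in 2 KO libraries and 1 WT IL-4 library and in no WT IL-21 library. Ppp1ca and Ppp1cb, and the closest paralogue, Ppp1r16a, had no peak in any library. Cell type markers cannot be read from these peak lists, so the sorted identity was taken from the labels.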

How the data were processed

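CUT&RUN libraries of 12 samples were used, each with its own deposited peak list. Per the submitters' processing notes the build was mm10 and the tools included MACS2 2.2.7.1, Bowtie2 2.4.1, Trimmomatic 0.39 and, in no stated role, deepTools 3.5.1. Not given in the sources used here are the control for the peak calls, the handling of the yeast spike-in and the filters. A deposited list gives positions, a fold enrichment (a ratio), p and q as −log10 values, and a score that is 10 times the −log10 p cut to a whole number in nearly all peaks. Of 13908 peaks, 13513 on chromosomes 1 to 19, X and Y were kept. Positions are 1-based. Genes came from RefSeq on GRCm38.p6.

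Peaks overlapping by at least 1 bp were merged. Pileups were solved from fold and p under a Poisson model to within 0.001 of the deposited −log10 p. Isotypes were compared by exact permutation within treatment (36 arrangements). Named genes were those in the window, the 5 nearest by distance with ties, and listed phosphatase genes with a WT IL-21 peak. Socs3, Pgs1, Fgd2, the catalytic subunit genes and Ppp1r16a were named after their values were seen. Members and lists were chosen with earlier results of these data known. Replicates may be technical, so p-values measure only the spread between these libraries. The labels do not say that a replicate number marks a shared animal, so the numbers were not taken as pairs. Same-numbered WT libraries deviated together with correlations of −0.04 to 0.11 over 818 regions, which cannot tell whether they shared an animal. Alternatives covered the window, merging, thresholds, list length, replicate block and each WT library left out. Python 3.11.15, pandas 2.3.3 and SciPy 1.17.1 were used, and the code was tested on simulated data.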

Additional observations from a re-analysis of the deposited data

Results flagged for a closer look

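In 13 sets of 4 libraries examined at this locus, 2 held a library far from the other 3, where chance picks out about 1 in 20 sets. The window held 0.256% of the peaks of the second WT IgM IL-21 library (3 of 1171), below the 0.337% to 0.347% of the other WT IL-21 libraries. Shares of so few peaks move in coarse steps, so the rate of 1 in 20 is only rough for them. At the 55.5 kb site the second WT IgG1 IL-21 library had a pileup of 24 fragments, above the 17 to 18 of the other 3, while its fold there was the lowest (4.13), over the highest local background (5.06 fragments).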

How the results depend on the processing

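The 11 sites fell to 5 with a −log10 q of at least 5, to 6 with a fold of at least 5 and to 6 when every list kept its 623 strongest peaks. The 1 site gained over both isotypes was 0 under each of these and when summits within 200 bp were joined. The IgM count of 3 became 2 with a −log10 q of at least 5, 1 with a fold of at least 5, 2 with lists of equal length and 1 with joined summits. The IgG1 count of 2 became 1 with a −log10 q of at least 5, 0 with a fold of at least 5, 1 with lists of equal length and 1 with joined summits. The 7 sites with a WT IL-21 and no KO peak became 4 with a fold of at least 5 and 3 with lists of equal length. They became 5 with a −log10 q of at least 5, 5 with the gene span alone and 10 with joined summits. Joined summits also raised the 11 sites of the window to 14. Other windows gave 9 sites (gene span alone), 10 (10 kb each side) and 12 (100 kb each side). The thresholds and equal lengths leave fewer peaks by construction, and leaving out an IL-21 library loosens the rule for gained. Leaving out 1 WT library at a time gave 9 to 11 sites, 1 to 3 gained over both isotypes (3 without the first WT IgG1 IL-21 library), 3 to 6 in IgM cells, 2 to 5 in IgG1 cells, and 5 to 7 with no KO peak. The isotype difference ran from 0 to 2 sites and from 0.00371 to 0.0477 percentage points. It turned to −0.0144 points with 100 kb each side, and the cause was not tested. With lists of equal length it reached p = 0.0556 (exact permutation, the smallest possible, 1 site and 0.161 points). The replicate block gave p = 0.625 for the 1 site and p = 0.75 for the 0.0257 points (exact permutation, smallest possible 0.125), so it changed no call. WT IL-21 peaks in the window had pileups of 10 to 37 fragments (median 18), against a smallest called height of 10 to 12. The lowest −log10 p of a list was 5.00 to 5.18 over the 12 libraries, so weaker sites could not be seen. The part of depth in this was not tested.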
